A study of Mus musculus with 6 samples.

Results

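The 76 genes described here code for sorting nexins, vacuolar protein sorting (VPS) proteins and subunits of the endosomal sorting complexes required for transport (ESCRT). They were taken by symbol alone, whatever their values, from the 24214 gene rows of each table. The rule took every Snx, Vps and Chmp symbol that ends in a number or in a number and a paralogue letter, together with Hgs, Stam, Stam2, Tsg101 and Eea1. One of the 76, Vps72, is a subunit of chromatin remodelling complexes that meets the rule by its name only.

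RNA was sequenced from 393P cells, an epithelial line of murine lung adenocarcinoma that undergoes epithelial-mesenchymal transition (EMT) when given ZEB1, a zinc-finger repressor that drives this transition. Cells transfected with a ZEB1 expression vector (393P_ZEB1, n = 3) were compared with cells transfected with the empty control vector (393P_vector, n = 3). Both groups were made in the same line, of C57BL/6 origin, and both were grown in RPMI medium with fetal calf serum. Everything below therefore describes 1 cell line, and since the labels do not say that the 3 samples of a group came from separate transfections or cultures, the p-values measure only the spread between these samples, which may be technical. The comparison asks which parts of the endosomal sorting machinery differed in RNA level between these groups, in a study concerned with how ZEB1 alters vesicle traffic.

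Proteins taken up from the plasma membrane reach early endosomes, from which they are recycled, sent back to the Golgi or passed on to lysosomes. Sorting nexins bind endosomal phosphoinositides through a PX domain, and those that also have a membrane-bending BAR domain form tubules that carry cargo away, many of them together with retromer, a complex of VPS26, VPS29 and VPS35. The tethers CORVET and HOPS bring endosomes together with each other and with lysosomes. The ESCRT complexes act in sequence on ubiquitinated receptors and bud them into the endosome interior, and the same late-acting subunits also seal membranes elsewhere, for example at the end of cell division.

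Zeb1 was measured at 21.2, 22.0 and 21.4 CPM (counts scaled to a common library size) in 393P_vector replicates 1 to 3 and at 54.9, 48.9 and 51.3 CPM in 393P_ZEB1 replicates 1 to 3, so the libraries labelled ZEB1 had more of its RNA. Of 6 epithelial markers, Krt8, Krt18 and Krt19 were high in all 6 libraries, though Krt8 and Krt18 were lower in 393P_ZEB1 (edgeR adjusted p = 0.00359 and 0.00113). Epcam, Cdh1 and Cldn4 were between 92.2 and 288 CPM in 393P_vector and between 0.542 and 10.3 CPM in 393P_ZEB1. The mesenchymal genes Vim and Fn1 were high in both groups, at means of 5508 and 2417 CPM in 393P_vector and 7330 and 3573 CPM in 393P_ZEB1. Cdh2 was at means of 46.8 and 193 CPM. The lung lineage markers Nkx2-1 and Sftpc were at or near 0 everywhere, with 0.0561 CPM the highest value, so the tissue label cannot be read from them. The leukocyte genes Ptprc, Cd68 and Cd3e summed to between 1.15 and 3.48 CPM, Pecam1 and Cdh5 of endothelium to between 0.234 and 0.530 CPM, and the fibroblast genes Pdgfra, Pdgfrb and Dcn to between 0.756 and 1.65 CPM. Libraries held between 54442450 and 79158012 counts. The deepest of them, 393P_vector replicate 3, stood apart: of the 73 members tested it differed from the other vector libraries by at least 1.5-fold for 19 and 23, whereas replicates 1 and 2 differed by that much for 0 and the ZEB1 libraries, in pairs, for 0 to 2.

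All but 3 of the 76 genes passed the filter on low counts. Snx31, Snx20 and Snx22 did not and were at most 0.241 CPM in any library. The 73 that passed were well expressed, with a median level of 60.3 CPM against 23.9 CPM over the 13892 genes tested. At an edgeR adjusted p under 0.05, the ZEB1 cells had more RNA of 13 of these 73 members and less of 8. Among all tested genes 18.3% were called higher and 19.3% lower, 37.6% in all, so the members' shares of 17.8% higher and 11% lower were near the background in the upward direction and under it in the downward direction. The changes were also modest. The median size of the log2 fold change was 0.26 among the members against 0.39 among all tested genes, the signed medians were 0.08 and -0.02, and a call with a change of at least 1.5-fold was made for 12 members (16.4%) against 28.4% of all genes. The 2 groups of libraries did not overlap for 29 members (39.7%), 20 of them higher and 9 lower in 393P_ZEB1, against 52.8% of all tested genes, of which 26.3% were higher and 26.5% lower. The 21 called members were among the 29. In bulk RNA, fewer cells expressing a gene and less RNA per cell cannot be told apart.

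Which members were called depended on single libraries. Without 393P_vector replicate 3 the count rose to 23 higher and 14 lower, beside 26.2% and 26.8% of the 14106 genes then tested. It kept all 21 calls and added 16. Without 393P_vector replicate 2 the counts were 13 and 4, and without replicate 1 they were 9 and 6. They were 9 and 2 without 393P_ZEB1 replicate 1, 8 and 2 without replicate 2, and 8 and 4 without replicate 3. Apart from the fit without 393P_vector replicate 3, no share of all tested genes is given. Those counts therefore cannot be set against the background. Snx2, Snx3, Snx4, Snx5, Snx7, Snx13, Vps16, Vps41 and Chmp1b were called in each of these 6 fits, and the other 12 called members were lost in at least 1 of them.

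**Figure D1:**
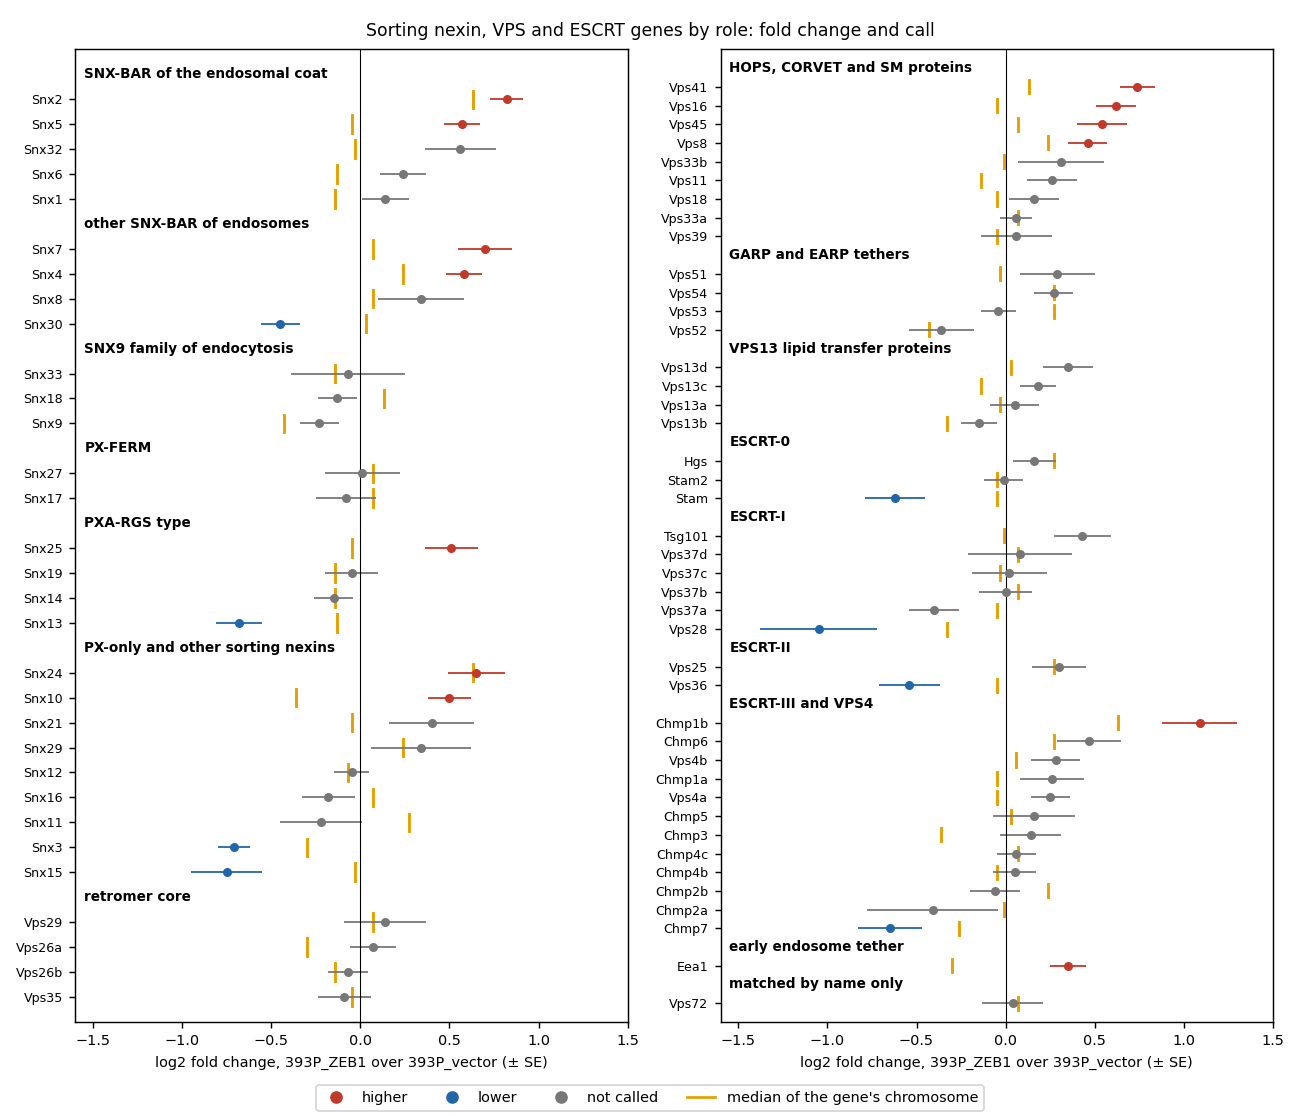
Log2 fold change of each of the 73 tested members (393P_ZEB1 over 393P_vector, points with bars of ± 1 SE from edgeR, n = 3 per group), grouped by role, with the 13 higher members in red, the 8 lower in blue and the 52 not called in grey. Orange ticks give the median log2 fold change of the other tested genes of the same chromosome. The retromer core lies close to 0, while the members listed under HOPS, CORVET and SM proteins lie at or above 0. The calls in ESCRT-0, ESCRT-I and ESCRT-II are all lower.

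Because ZEB1 and the miR-200 microRNAs repress each other in a known feedback loop, and because the study looked for miR-200 targets among trafficking genes, the 3′ UTRs of the members were read for seed matches. The 5 mature microRNAs are shown with the seed, bases 2 to 8, in capitals (RefSeq, GRCm38.p6). They fall into 2 seed families that differ at a single base of the seed.
miR-200b-3p: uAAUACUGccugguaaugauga
miR-200c-3p: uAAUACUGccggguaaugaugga
miR-429-3p: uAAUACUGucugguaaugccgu
miR-200a-3p: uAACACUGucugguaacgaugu
miR-141-3p: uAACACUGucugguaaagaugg

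A 7-base match to either seed (CAGTATT for the first family, CAGTGTT for the second, on the transcript strand) was found in the 3′ UTR of 28 of the 73 tested members (38.4%), against 30.4% of the 12005 tested genes with an annotated 3′ UTR, where 1 transcript was read per gene, the coding one of greatest length. Of these 28 members 4 were called higher (Chmp1b, Vps41, Snx10 and Eea1) and 4 lower (Stam, Snx30, Vps36 and Snx13). Of all 73 members 17.8% were higher and 11% lower, and of all tested genes 18.3% and 19.3%. The median log2 fold change was 0.06 over the members with a match and 0.14 over those without. Over all 12005 tested genes with a 3′ UTR the order was the opposite, at 0.05 with a match and -0.05 without. The order of the members depended on the kind of match. With matches of 8 bases only, held by 5 members, their medians were 0.34 with and 0.08 without. Over all genes these were 0.09 and -0.03. Of the 4 called members with a match to the second seed, Snx10 was higher and Stam, Snx30 and Vps36 were lower. Apart from that of Chmp1b, the matches of these called members are shown in capitals within 29 bases of the transcript strand, so that the letters behind these counts can be read.
Vps41, chr13:18866403-18866431 (+): gcattgctaatCAGTATTtcatgatttgt
Eea1, chr10:96042760-96042788 (+): ttttgtttgggCAGTATTgattaaattct
Snx13, chr12:35146519-35146547 (+): tgagtagagtaCAGTATTctctggttaat
Snx10, chr6:51589338-51589366 (+): tactgtaaacaCAGTGTTcgactgaagct
Stam, chr2:14148948-14148976 (+): cagtcctcatgCAGTGTTggggtgataat
Vps36, chr8:22220023-22220051 (+): gagggttaattCAGTGTTggctacccaaa
Snx30 site 1, chr4:59902252-59902280 (+): gggcatgatggCAGTGTTtctcttttagg
Snx30 site 2, chr4:59902894-59902922 (+): ctgtaggttgtCAGTGTTccattttgaaa

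The coordinates are those of GRCm38, from the GENCODE M21 annotation. The sites of Stam and Vps36 lie beyond the end of the deposited rows for these genes (14148330 and 22218597), in a longer 3′ UTR than the one that was counted. A seed match is a sequence description and was not tested for binding here.

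ZEB1 itself binds E-box sequences, and the promoters of the members were read for CACCTG and its reverse complement CAGGTG, from 250 bases before to 50 bases after each annotated start (RefSeq, GRCm38.p6). A promoter was at hand for 52 of the 76 members. It held the motif on either strand for 10 of them (19.2%), against 21.1% of the 9748 tested genes with a promoter. Counted by promoter and not by gene, the share was 20.2% of all 32851 promoters. Of the 15 called members with a promoter, 3 held the motif, and they were the higher members Snx10, Snx25 and Vps8. No lower member did, but only 5 of them had a promoter, too few to compare the directions. These windows of 30 bases, read 5′ to 3′ on the gene's strand with the motif in capitals, are shown for these 3 genes, the called members with the motif.
Snx10, chr6:51524080-51524109 (+): cgcctgccccggCACCTGctcagctcggct
Snx25, chr8:46152624-46152653 (-): gcaggcttctgaCACCTGcagcaaaatttt
Vps8, chr16:21422936-21422965 (+): tttatggaagttCAGGTGagctgattgaaa

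The window of Snx25 belongs to a start upstream of the deposited row, which ends at 46124146. The motif was a letter match only, and binding was not measured.

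Among the BAR-domain sorting nexins of the retromer-linked coat, Snx2 and Snx5 were higher in 393P_ZEB1, and Snx1, Snx6 and Snx32 were not called. SNX1 and SNX2 pair with SNX5 or SNX6 to form the tubules in which receptors return to the Golgi. Snx2 (chr18:53176365-53220860) was at 70.9, 77.3 and 73.2 CPM in the vector libraries and at 135, 124 and 131 CPM in the ZEB1 libraries. The ZEB1 libraries were all well above the vector libraries, and each group was tight. The log2 fold change was 0.82 ± 0.09 (SE, edgeR adjusted p = 0.000375), from 73.8 ± 3.23 to 130 ± 5.15 CPM (SD, n = 3 each). Transcripts of a pseudogene on chromosome 4 are at least 95% identical to 26.3% of the Snx2 transcript. A processed transcript of Snx30, itself a member, matches 11.7% of it in the same way. Some reads of Snx2 could therefore have been counted at either place.

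Snx5 (chr2:144250124-144270902) was at 288, 279 and 267 CPM and at 441, 397 and 398 CPM. No ZEB1 library came near a vector library, and its log2 fold change was 0.57 ± 0.10 (edgeR adjusted p = 0.00313). Its row spans that of Snord17, a small nucleolar RNA, which was not called (0.33, edgeR adjusted p = 0.107). Its partner Snx6 had a log2 fold change of 0.24 ± 0.13 and overlapped between groups. Snx1 was at 110, 110 and 84.0 CPM and at 121, 107 and 108 CPM, which overlapped, with a log2 fold change of 0.14 ± 0.13 (edgeR adjusted p = 0.436). Snx32, a paralogue of Snx5 and Snx6 at under 2 CPM, did not overlap between groups (0.56 ± 0.20, edgeR adjusted p = 0.0640) but was not called.

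The remaining BAR-domain nexins of endosomes moved in both directions. Snx4, which acts with SNX7 or SNX30 in recycling to the plasma membrane, was at 49.7, 49.2 and 54.9 CPM in 393P_vector and at 74.0, 78.8 and 77.9 CPM in 393P_ZEB1. Snx7 was at 56.8, 52.9 and 74.1 CPM and at 107, 93.1 and 99.6 CPM. Both were higher in every ZEB1 library than in any vector library. Their log2 fold changes were 0.58 ± 0.10 and 0.70 ± 0.15 (edgeR adjusted p = 0.00289 and 0.00751), and a processed pseudogene is at least 95% identical to 42.9% of the Snx4 transcript.

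Snx30, the alternative partner of SNX4 in place of SNX7, was lower. It was at 34.1, 34.8 and 30.5 CPM in 393P_vector and at 24.1, 24.4 and 24.4 CPM in 393P_ZEB1, with no overlap. Snx30 had a log2 fold change of -0.45 ± 0.11 (edgeR adjusted p = 0.0142), and its call was kept in 1 of the 6 fits that left out a library, the one without 393P_vector replicate 3. Where it was lost the adjusted p lay between 0.0512 and 0.0631. The pair of partners of Snx4 therefore had opposite calls. Snx8 was not called (0.34 ± 0.24).

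Snx3, a retromer partner that lacks a BAR domain and serves the return of Wntless to the Golgi, was lower and had little spread within groups. It was at 137, 139 and 140 CPM in the vector libraries and at 84.5, 86.1 and 83.3 CPM in the ZEB1 libraries. The groups were far apart, and 393P_vector replicate 3 lay with the other vector libraries. This was a log2 fold change of -0.71 ± 0.09 (edgeR adjusted p = 0.000535), with a range of -0.72 to -0.69 when single libraries were left out. The gene lies at chr10:42502054-42535369.

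The sorting nexins with a PX domain alone or with other domains were divided. Snx24, whose function is little known, was at 20.4, 19.2 and 27.9 CPM and at 33.5, 34.4 and 37.9 CPM, so that the groups did not overlap although 393P_vector replicate 3 was above the other vector libraries. Its log2 fold change was 0.65 ± 0.16 (edgeR adjusted p = 0.0169). The call was lost without 393P_vector replicate 1 and without 393P_ZEB1 replicate 2 or 3, with an adjusted p of at most 0.0671. Snx10, which works with the proton pump of endosomes and lysosomes, had a log2 fold change of 0.50 ± 0.12 (edgeR adjusted p = 0.0158), lost without 393P_ZEB1 replicate 1 or 2 (highest adjusted p 0.0608).

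Snx15, an endosomal nexin with a microtubule-interacting domain, was at 27.0, 27.9 and 16.9 CPM in 393P_vector and at 13, 14.8 and 15.0 CPM in 393P_ZEB1. The third vector library lay just above the ZEB1 libraries and far from its own group. Snx15 had a log2 fold change of -0.75 ± 0.20 (edgeR adjusted p = 0.0226), called in 1 of the 6 fits without a library, again the one without 393P_vector replicate 3, and between 0.0651 and 0.0940 in adjusted p otherwise. Snx11, Snx12, Snx16, Snx21 and Snx29 of this group were not called, with log2 fold changes from -0.22 to 0.40.

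In the PXA-RGS type, larger nexins of which some tether the endoplasmic reticulum to other membranes, Snx13 and Snx25 had opposite calls. Snx13 was at 54.8, 51.0 and 64.4 CPM in 393P_vector and at 38.3, 35.7 and 32.1 CPM in 393P_ZEB1, and it was lower in all ZEB1 libraries (-0.68 ± 0.13, edgeR adjusted p = 0.00499). Snx25, which has been tied to traffic of TGF-β receptors, was at 38.8, 41.0 and 32.6 CPM and at 62.1, 47.8 and 50.3 CPM. Its groups did not overlap, and 393P_ZEB1 replicate 1 was the highest. The log2 fold change of Snx25 was 0.51 ± 0.15 (edgeR adjusted p = 0.0274), not called without 393P_vector replicate 1 or 393P_ZEB1 replicate 1 or 3 (adjusted p at most 0.0932). Snx14 and Snx19 were not called.

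None of the 3 nexins of the SNX9 family, which act in endocytosis at the plasma membrane, were called in edgeR (log2 fold changes from -0.23 to -0.07), and none had an unadjusted p under 0.05 or were called in DESeq2, while limma voom with sample weights, which gave 393P_vector replicate 3 little weight, called Snx9 and Snx33 lower. The cargo adaptors Snx17 and Snx27 were not called either, at -0.08 ± 0.17 and 0.01 ± 0.21. In both, 393P_vector replicate 3 was far from its group, at 79.3 CPM beside 122 and 124 CPM for Snx17 and at 84.8 CPM beside 48.6 and 53.3 CPM for Snx27. Without that library Snx17 was -0.26 ± 0.07 and Snx27 was 0.30 ± 0.09, with edgeR adjusted p-values of 0.0137 and 0.0165.

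**Figure D2:**
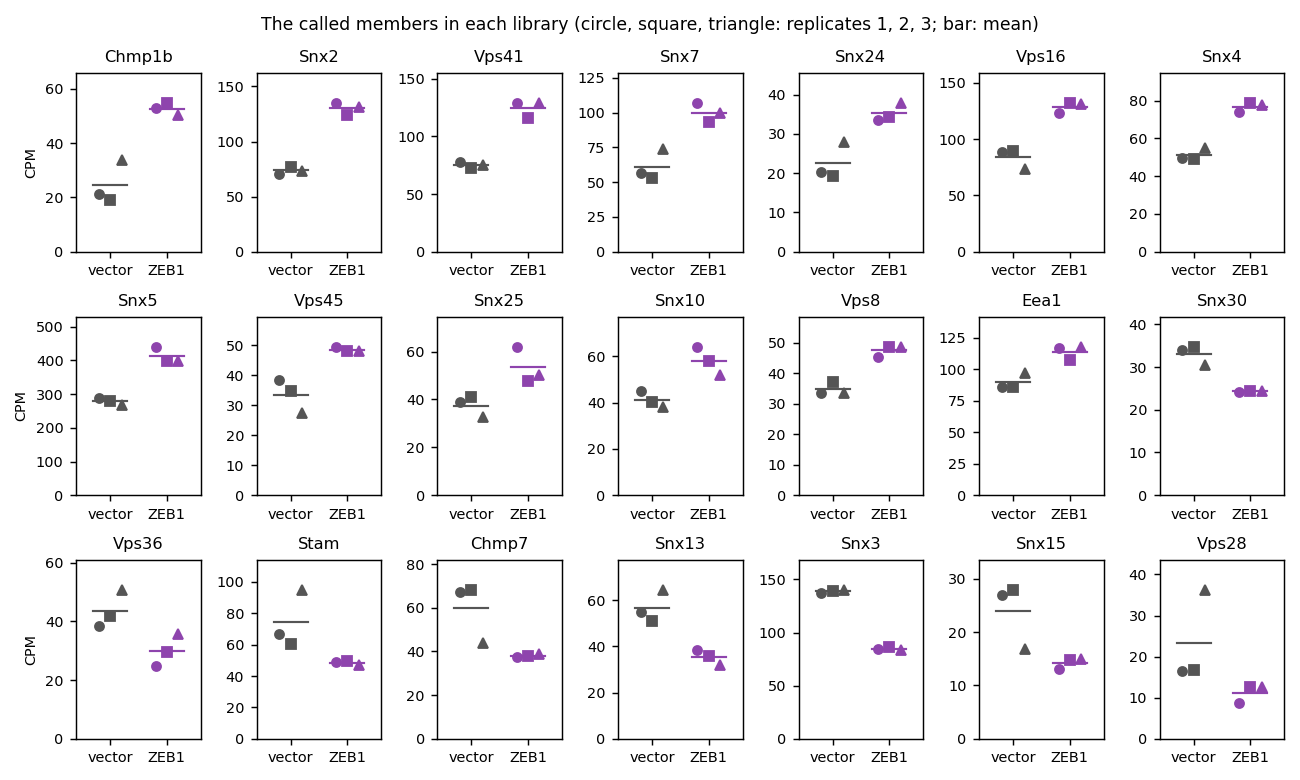
CPM (TMM-normalised, linear axis from 0) of the 21 called members in each library, 3 of 393P_vector (grey) and 3 of 393P_ZEB1 (purple), with bars at the group means and panels ordered by fold change. No panel has overlapping groups; the triangle of 393P_vector replicate 3 stands apart for Chmp1b, Stam, Chmp7, Snx15 and Vps28.

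None of the 4 retromer core genes was called by edgeR or DESeq2 or had an unadjusted p under 0.05, and limma voom with sample weights called 1, Vps29, higher. Vps35, the scaffold of the complex, was at 313, 286 and 412 CPM in 393P_vector and at 331, 325 and 292 CPM in 393P_ZEB1. Vps26a was at 88.2, 85.1 and 110 CPM and at 111, 94.9 and 93.2 CPM, and its paralogue Vps26b was at 63.2, 60.2 and 71.0 CPM and at 58.7, 65.1 and 62.0 CPM. All of these overlapped between groups. Log2 fold changes were -0.09 ± 0.15, 0.07 ± 0.13 and -0.07 ± 0.11, with edgeR adjusted p-values of 0.666, 0.702 and 0.667. The row of Vps26b overlaps that of Thyn1 on the opposite strand, and it is not stated whether counting used strand, so their reads may be mixed.

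Vps29, the third retromer subunit, was at 39.9, 39.6 and 71.5 CPM and at 51.8, 60.1 and 54.6 CPM. Here the vector libraries themselves lay on either side of the ZEB1 libraries (0.14 ± 0.23, edgeR adjusted p = 0.675). Without 393P_vector replicate 3 the log2 fold change was 0.48 ± 0.09 and was called (edgeR adjusted p = 0.00139), so the result for Vps29 rests on that library.

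The members included 9 genes of the HOPS and CORVET tethers and of SM proteins, which chaperone SNARE pairing. In edgeR 4 of them were higher and 0 lower, against background shares of 18.3% and 19.3%, with a median log2 fold change of 0.31. DESeq2 and limma voom also gave 4 and 0, and no gene of the 9 was lower at an unadjusted p under 0.05. These counts cover only genes taken by symbol. Of 7 tested partners of these tethers and of early endosomes outside the rule, 1 was higher and 2 were lower, Tgfbrap1 among the latter. Vps41, which is specific to HOPS, was at 77.6, 72.2 and 75.0 CPM in 393P_vector and at 129, 116 and 129 CPM in 393P_ZEB1. Vps16, a core subunit of both complexes, was at 88.4, 89.6 and 73.8 CPM and at 123, 132 and 131 CPM. Each was higher in all 3 ZEB1 libraries than in any vector library. The log2 fold changes were 0.74 ± 0.10 for Vps41 (chr13:18717292-18866811) and 0.62 ± 0.11 for Vps16 (chr2:130424320-130444269), with edgeR adjusted p-values of 0.000769 and 0.00361, and both were called in all fits without a library.

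Vps45, an SM protein of early endosomes, was at 38.3, 34.7 and 27.5 CPM in 393P_vector and at 49.6, 48.0 and 48.1 CPM in 393P_ZEB1, with no overlap. Its log2 fold change was 0.54 ± 0.14 (edgeR adjusted p = 0.0193). Vps8, which is specific to CORVET, was at 0.46 ± 0.11 (edgeR adjusted p = 0.0115). Vps45 lost its call without any 1 of the 3 ZEB1 libraries (adjusted p at most 0.0670), and Vps8 without 393P_vector replicate 1 or 393P_ZEB1 replicate 2 or 3 (at most 0.0538). The core subunits Vps11, Vps18 and Vps33a, the HOPS subunit Vps39, and Vps33b, which acts in a separate complex, were not called, with log2 fold changes from 0.06 to 0.31. The row of Vps16 overlaps that of Pced1a on the opposite strand by 321 bases, and Pced1a was not called (0.17). The higher calls thus included 1 of the 4 core subunits listed.

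Eea1, the tether that early endosomes use to meet each other under RAB5, was higher by the smallest margin of the called genes. It was at 86.0, 86.0 and 96.6 CPM in 393P_vector and at 117, 107 and 118 CPM in 393P_ZEB1. These groups did not overlap, and the log2 fold change was 0.35 ± 0.10 (edgeR adjusted p = 0.0283). The call was absent in 5 of the 6 fits without a library, all but that without 393P_vector replicate 3, with adjusted p-values up to 0.104, with the replicate number as a block (edgeR adjusted p = 0.0673) and with no filter on low counts (edgeR adjusted p = 0.0541).

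The GARP and EARP tethers, which receive endosome-derived vesicles at the Golgi and at recycling endosomes, gave no call in edgeR or DESeq2 among Vps51, Vps52, Vps53 and Vps54 (log2 fold changes from -0.36 to 0.29). Vps54 alone had an unadjusted p under 0.05, and limma voom with sample weights called it higher and Vps52 lower. For Vps51 and Vps52, 393P_vector replicate 3 was at 46.1 and 52.4 CPM beside 78.5 to 84.6 CPM in the other vector libraries. The lipid transfer proteins Vps13a, Vps13b, Vps13c and Vps13d were likewise not called by edgeR, DESeq2 or limma voom (-0.15 to 0.35), and 1 of the 4, Vps13d, had an unadjusted p under 0.05.

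In ESCRT-0, the complex that first captures ubiquitinated receptors, Stam was lower and its partners were not called. Stam (chr2:14074112-14148330) was at 67.0, 60.7 and 94.8 CPM in 393P_vector and at 48.7, 49.6 and 46.9 CPM in 393P_ZEB1. The ZEB1 libraries were close together under all vector libraries, of which replicate 3 was the highest. Stam had a log2 fold change of -0.62 ± 0.17 (edgeR adjusted p = 0.0252), and the call was lost without any 1 of the ZEB1 libraries (adjusted p from 0.0796 to 0.0948). Without 393P_vector replicate 3 the change was still called but smaller, at -0.40 (edgeR adjusted p = 0.00237).

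Stam2, the paralogue of Stam, was at 87.4, 86.0 and 103 CPM and at 96.3, 93.2 and 84.7 CPM, and Hgs, which holds both of them in the complex, was at 153, 159 and 123 CPM and at 160, 159 and 169 CPM. Neither separated the groups. Their log2 fold changes were -0.01 ± 0.11 and 0.16 ± 0.12 (edgeR adjusted p = 0.958 and 0.321).

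In ESCRT-I, Vps28, a subunit of the complex core, was lower by the largest margin of any tested member when all 6 libraries were used. It was at 16.6, 16.8 and 36.2 CPM in 393P_vector and at 8.75, 12.5 and 12.5 CPM in 393P_ZEB1. The groups did not overlap, but 393P_vector replicate 3 was far above the other vector libraries. Its log2 fold change was -1.05 ± 0.33 (edgeR adjusted p = 0.0382). It was -0.57 without that library and then still called, but no longer the largest fall. In that fit Snx15 (-0.95), Chmp7 (-0.83), Snx3 (-0.70) and Snx13 (-0.58) fell by more. Vps28 was not called without any 1 of the ZEB1 libraries (adjusted p from 0.0887 to 0.143). Vps28 lies at chr15:76622088-76626027.

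Tsg101, the ESCRT-I subunit that binds ubiquitin and the viral late domains, was at 21.8, 21.4 and 29.6 CPM in 393P_vector and at 34.9, 33.6 and 29.6 CPM in 393P_ZEB1. The ranges touched without overlapping to the digits kept here, and the gene was not called (0.43 ± 0.16, edgeR adjusted p = 0.0661). It was called without 393P_vector replicate 3 (0.60 ± 0.10, edgeR adjusted p = 0.000671). A processed pseudogene matches 60.3% of the Tsg101 transcript at no less than 95% identity, so its level is uncertain. Of the 4 Vps37 paralogues none were called, and Vps37a, whose groups did not overlap, was at -0.40 ± 0.14 (edgeR adjusted p = 0.0633). Its row overlaps that of Mtmr7 on the other strand, and Mtmr7 was higher (0.83).

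Of the ESCRT-II genes Vps36 was lower and Vps25 was not called. Vps36, the subunit that binds ubiquitin, was at 38.6, 41.8 and 50.7 CPM in 393P_vector and at 24.9, 29.5 and 35.6 CPM in 393P_ZEB1. All ZEB1 libraries were under all vector libraries, by a small gap between the nearest of them. Vps36 had a log2 fold change of -0.54 ± 0.17 (edgeR adjusted p = 0.0374), not called without 393P_vector replicate 2 or 393P_ZEB1 replicate 1 or 2 (adjusted p up to 0.127). Vps25 was at 0.30 ± 0.15. Over ESCRT-0, ESCRT-I and ESCRT-II there were 3 lower and 0 higher calls among 11 genes in edgeR, against background shares of 19.3% and 18.3%. At an unadjusted p under 0.05 there were 4 lower and 1 higher (Tsg101), the same as in DESeq2, and limma voom with sample weights called 4 lower and 2 higher (Tsg101 and Vps25).

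In ESCRT-III, whose filaments cut the membrane neck, and its ATPase VPS4, 10 of 12 genes were not called. Chmp1b had the largest rise of any tested member. It was at 21.2, 19.2 and 33.8 CPM in 393P_vector and at 52.9, 54.8 and 50.4 CPM in 393P_ZEB1. Every ZEB1 library was above every vector library, and 393P_vector replicate 3 was the nearest to them. The log2 fold change was 1.09 ± 0.21 (edgeR adjusted p = 0.00551), or 2.13-fold. Chmp1b (chr18:67205359-67207887) lies within the span of Gnal on the same strand, and Gnal was at 0.710 ± 0.104 and 0.781 ± 0.240 CPM.

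Chmp7, which recruits ESCRT-III to the nuclear envelope as it reseals, was lower. It was at 67.4, 68.1 and 43.7 CPM in 393P_vector and at 37.3, 37.8 and 38.9 CPM in 393P_ZEB1. The third vector library was near the ZEB1 libraries. Chmp7 had a log2 fold change of -0.65 ± 0.18 (edgeR adjusted p = 0.0229), and the call was kept without 393P_vector replicate 3 but not in the other 5 fits without a library (adjusted p from 0.0647 to 0.0865).

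Chmp4b, the main filament-forming subunit, was at 130, 149 and 143 CPM in 393P_vector and at 129, 140 and 167 CPM in 393P_ZEB1. The groups overlapped (0.05 ± 0.12, edgeR adjusted p = 0.797). Vps4a was at 48.7, 49.0 and 42.0 CPM and at 55.3, 54.3 and 56.5 CPM, without overlap but not called (0.25 ± 0.11, edgeR adjusted p = 0.107). Its paralogue Vps4b was at 85.2, 84.7 and 118 CPM and at 115, 114 and 119 CPM, where replicate 3 of the vector group lay among the ZEB1 libraries (0.28 ± 0.14, edgeR adjusted p = 0.171). Without that library Vps4b was called at 0.45 ± 0.07 (edgeR adjusted p = 0.000467), and 28.7% of its transcript is shared with a pseudogene at no less than 95% identity. Chmp2a, a direct partner of VPS4, was at 12, 11.9 and 27.7 CPM in 393P_vector and at 9.05, 13.6 and 16.3 CPM in 393P_ZEB1, an overlap with a log2 fold change of -0.41 ± 0.37.

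Paralogues that can stand in for each other were also compared as shares of their set, after dividing CPM by exon length. Snx2 made up 40.0%, 42.0% and 47.4% of the summed level of Snx1 and Snx2 in 393P_vector and 53.4%, 54.7% and 55.7% in 393P_ZEB1, so the more abundant gene of the pair changed from Snx1 to Snx2. The summed level of the pair was 86.1 ± 7.77 and 119 ± 6.20 CPM per kb. Stam2 made up 53.8%, 55.8% and 49.1% of the Stam pair in 393P_vector and 63.9%, 62.7% and 61.7% in 393P_ZEB1, while the summed level was 42.6 ± 7.20 and 35.4 ± 1.79 CPM per kb. In both pairs the groups did not overlap.

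Snx5 was 62.8% ± 4.32 of its set with Snx6 and Snx32 in 393P_vector and 67.8% ± 0.202 in 393P_ZEB1 (SD, n = 3), without overlap. That difference of 5.04 percentage points was 2.55 without 393P_vector replicate 3, which was at 57.8% beside 65.5% and 65.1%. Vps13b went from 27.9% ± 0.803 to 24.1% ± 0.989 of its 4 genes and Vps13d from 12.7% ± 2.42 to 15.4% ± 0.578, both without overlap. For Vps13d the difference of 2.75 points was 1.36 without 393P_vector replicate 3. Vps26a held 75.5% ± 1.09 and 77.2% ± 2.41 of the Vps26 pair, Chmp4b 78.6% ± 2.03 and 78.3% ± 2.83 of its pair with Chmp4c, and Vps4a 43.7% ± 6.66 and 43.0% ± 0.126 of the Vps4 pair. These overlapped, as did the Vps33, Vps37 and SNX9 sets. An exact permutation test of 3 libraries against 3 cannot go below p = 0.1, and none was made on the shares.

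**Figure D3:**
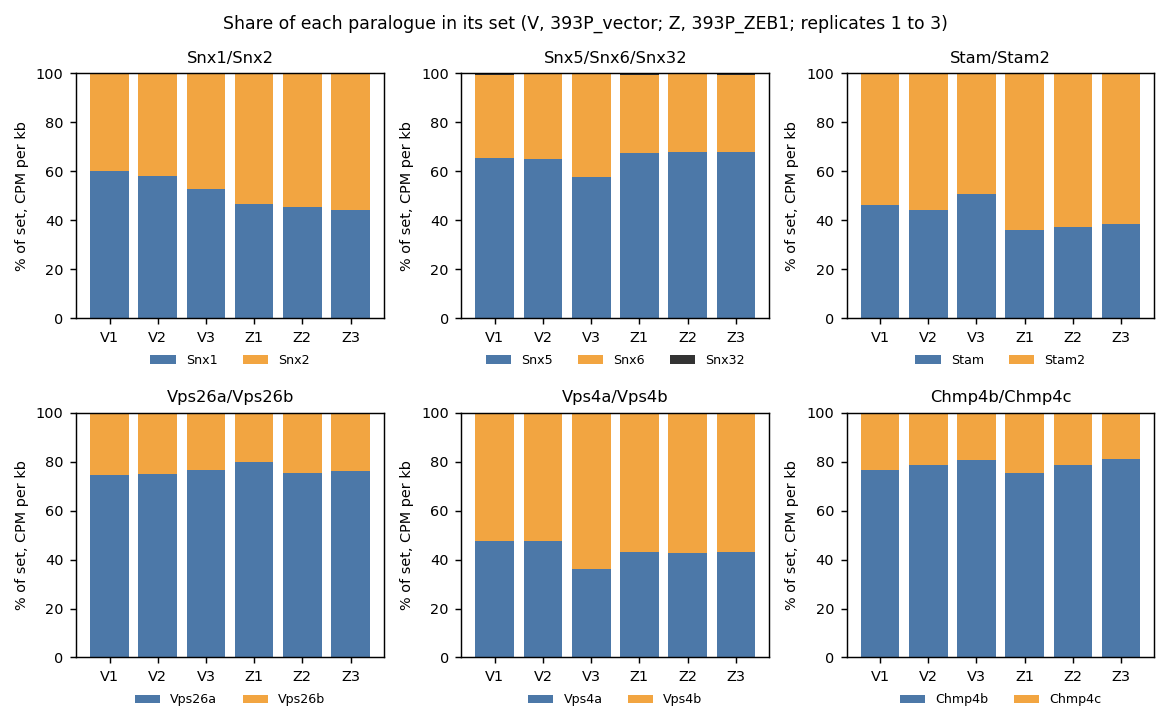
Share of each paralogue in the summed level of its set (percent, CPM per kb of exon, bars from 0 to 100) in the 3 vector (V1 to V3) and 3 ZEB1 (Z1 to Z3) libraries, for 6 of the 10 sets. Snx2 went from at most 47.4% to at least 53.4% of its pair and Stam2 from at most 55.8% to at least 61.7%, while the Vps26, Vps4 and Chmp4 pairs overlapped between groups.

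Chromosomes as wholes differed between the groups. The 3 members on chromosome 18, Snx2, Snx24 and Chmp1b, were called higher, and the median log2 fold change of the 393 other tested genes there was 0.63. Of the 396 tested genes on that chromosome 255 were higher. Above the chromosome's median Snx2 was higher by 0.18, Snx24 by 0.01 and Chmp1b by 0.46 on the log2 scale. Off chromosome 18, 10 of the 70 tested members were higher and 8 were lower. Over all tested genes, those of chromosome 18 included, 18.3% were higher and 19.3% lower. Snx3 and Eea1 lie on chromosome 10, whose median was -0.30, so Snx3 was 0.41 under it at -0.71 and Eea1 was 0.65 above it. Vps28 on chromosome 15 (median -0.33) was at -0.71 after the same subtraction. The part of these chromosome-wide shifts in the calls was not tested.

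The values of 393P_vector replicate 3 followed base composition. Its level was the highest of the 6 libraries for 17 of the 73 members and the lowest for 30. The median GC content of the longest coding transcript was 43.9% over the former and 51.6% over the latter. Across the 73 genes, the log2 ratio of this library to the mean of the other vector libraries went with GC content at a Spearman rho of -0.64 (Pearson r = -0.57) and with exon length at a rho of -0.05, all of which describe 1 library. The log2 fold change between groups went with GC content at a rho of -0.06. Vps28 and Chmp2a were exceptions, with GC contents of 54.4% and 53.3% and log2 ratios of 1.11 and 1.22. Their exon lengths of 875 and 921 bases were the shortest among the members. The part of base composition or exon length in any single call was not tested.

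**Figure D4:**
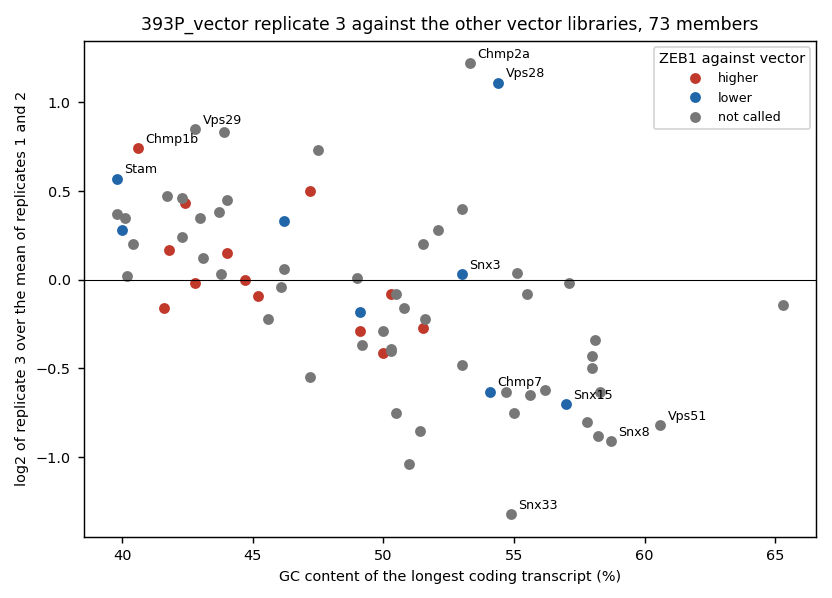
Log2 ratio of 393P_vector replicate 3 to the mean of vector replicates 1 and 2 against the GC content (percent) of the longest coding transcript, 1 point for each of the 73 tested members, coloured by the call between groups. The ratio is mostly above 0 at low GC and below 0 at high GC (rho = -0.64), with Vps28 and Chmp2a above the rest at 54.4% and 53.3% GC.

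Of 49 tested genes that act beside these proteins 7 were higher and 10 were lower, where 18.3% and 19.3% of all tested genes were, so these counts were near the background. Among 9 further ESCRT partners there was no call in edgeR or DESeq2 (lowest log2 fold change -0.48), 1 was lower at an unadjusted p under 0.05, and limma voom called 3 lower. The retriever, CCC and WASH complexes, which recycle cargo independently of or together with retromer, gave 3 higher and 4 lower calls among 18. Commd10 rose from 19.6 ± 0.475 to 46.7 ± 3.50 CPM (1.25 ± 0.11, edgeR adjusted p = 8.54e-05) and is also on chromosome 18, Dscr3 was at 0.62 ± 0.12, and Commd5 was at -0.66 ± 0.18. Among 9 genes that make or turn over the endosomal lipid PI3P, Pik3c3, the catalytic subunit of the kinase, was at 27.4 ± 2.92 and 55.2 ± 3.41 CPM (1.01 ± 0.12, edgeR adjusted p = 0.000485) and lies on chromosome 18 as well, and the phosphatase Fig4 was lower (-0.65 ± 0.12). Zfyve20, an early endosome effector of RAB5, was lower at -0.62 ± 0.14. The chromosome medians were 0.24 for Dscr3 (chromosome 16), -0.33 for Commd5 (15), -0.30 for Fig4 (10) and -0.36 for Zfyve20 (6).

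Of the sorting receptors, the cargo that these coats carry, Sorl1 and Igf2r had the largest changes of the genes in these lists. Sorl1, a sorting receptor of endosomes and Golgi, was at 11.2 ± 0.733 CPM in 393P_vector and 1.89 ± 0.137 CPM in 393P_ZEB1 (-2.56 ± 0.15, edgeR adjusted p = 9.76e-06). Igf2r, the cation-independent mannose 6-phosphate receptor and a classical retromer cargo, was at 307 ± 52.1 and 108 ± 5.71 CPM (-1.51 ± 0.14, edgeR adjusted p = 0.000141). Igf2r lies on chromosome 17, whose median was -0.43, and Sorl1 on chromosome 9, whose median was -0.14. Among the 6 receptors listed 3 were lower and 1 was higher, with a median log2 fold change of -0.27. Both Sorl1 and Igf2r changed by more than any of the 73 members.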

How the data were processed

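Total RNA of 6 samples was made into SOLiD libraries. For each sample, the authors deposited raw counts of reads per gene row and an RPKM (the count scaled by exon length and depth); the RPKM columns were not used further. The aligner, counter and its use of strand are not given in the sources used here. Of the 76 member rows, 32 end at the same base as in RefSeq GRCm38.p6, and coordinates were read as that build. Groups were taken from the labels, and no sample was left out.

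The counts were tested in R 4.3.3 with edgeR 4.0.16 (TMM, filterByExpr with a minimum count of 10, robust quasi-likelihood fit, Benjamini-Hochberg threshold of 0.05, no block). Folds are 393P_ZEB1 over 393P_vector. CPM used TMM library sizes. By raw library totals, without TMM, 3 counts correspond to 0.0379 to 0.0551 CPM, which covers counting error only. Alternatives used DESeq2 1.42.0 and limma 3.58.1.

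Values per library are given for up to 10 largest rises and falls among called members with groups that do not overlap and a mean of at least 1 CPM, and for Vps35, Vps26a, Vps26b, Vps29, Snx1, Snx2, Snx3, Hgs, Stam, Stam2, Tsg101, Chmp4b, Vps4a, Vps4b and Eea1; single values of other members (Snx17, Snx27, Vps51, Vps52, Chmp2a) were chosen after their values were seen. Members, roles and lists were chosen with earlier results of these data known. Row symbols were used as deposited. Partner genes are named where called with at least 1.5-fold change, and Tgfbrap1, called at a smaller change, is named as well. Seed matches used GENCODE M21, and near-identical transcripts were found with BLAST 2.17.0.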

Additional observations from a re-analysis of the deposited data

How the results depend on the processing

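The counts of 13 higher and 8 lower members were 13 and 8 with DESeq2 size factors, with at least 10 counts in every sample and without the 10 most counted genes, 14 and 9 with the DESeq2 test, and 12 and 9 with no filter, where Snx22 was added to the lower members and Eea1 was lost from the higher. They moved to 23 and 14 with limma voom and sample weights, to 7 and 2 at an adjusted p of 0.01, and to 2 and 0 in a test against a 1.5-fold change, in which Snx2 and Chmp1b remained. With single libraries left out they ranged from 8 to 23 and from 2 to 14. Both groups carry replicate numbers 1 to 3 in the labels. Deviations of samples with the same number correlated at -0.205 to 0.279 and those of different numbers at -0.182 to 0.222, so the numbers are not shown to pair the samples, and the fit with the replicate number as a block gave 12 and 8, with Eea1 lost. No called member named above changed direction in any of these fits. Of members not called, Vps35, Vps26b and Stam2 changed sign with limma voom, to 0.03, 0.01 and 0.05. With single libraries left out the log2 fold change ranged from -0.19 to 0.08 for Vps35, from 0.00 to 0.20 for Vps26a, from -0.11 to 0.00 for Vps26b, from 0.00 to 0.48 for Vps29, from -0.05 to 0.08 for Stam2 and from -0.05 to 0.13 for Chmp4b. The causes of these moves were not tested. The motif CACCT in place of CACCTG was found in 25 of 52 members (48.1%), against 54.5% of tested genes, with 5 higher and 1 lower calls among those members. Seed matches of 8 bases only were found in 5 members (6.85%), against 8.42% of tested genes with a 3′ UTR, with 0 higher and 0 lower calls among those members. With any coding transcript read, 30 members (41.1%) had a seed match, against 32.0% of tested genes with a 3′ UTR. Of these members 5 were higher, with Vps8 added, and 4 lower. Depth limits Snx20, Snx22 and Snx31, whose counts were too few for the filter, and the row of Snx22 overlaps that of the abundant Ppib.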
